A study of Arabidopsis thaliana with 12 samples.

Results

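WES1, LBD16 and LBD29 are auxin response genes, and their levels were followed across 12 single-colour Affymetrix ATH1 arrays of sorted Arabidopsis root tip cells. They were found by symbol through the platform's table of probe sets and genes, each with 1 probe set, so 3 genes are described out of 22746 probe sets that are not controls. Only 13513 of those probe sets could be tied to a single gene here. Their loci are AT4G27260 (WES1, also named GH3.5), AT2G42430 (LBD16) and AT3G58190 (LBD29). The genome build behind the table is not given in the sources used here, so no coordinates are stated.

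All plants were of ecotype C24 and carried J0571, an enhancer trap whose GAL4 and GFP are active in the root's ground tissue (cortex and endodermis). The control group was J0571 in a wild-type background, and the other groups, on the same background, also held a UAS construct through which GAL4 drove BLJ, JKD or SCR, which encode transcription factors that pattern the ground tissue. Seedlings were grown for 5 days on standard medium, root tips were cut, and GFP-positive cells were sorted for RNA. Each of the 4 groups had 3 arrays, labelled as biological replicates. Whether each UAS line came from 1 transformant is not stated. Values come from cells sorted in bulk, so a smaller share of cells that express a gene and less RNA per cell cannot be told apart.

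Auxin is perceived by TIR1/AFB receptors, which trigger the breakdown of Aux/IAA repressors and so free the ARF transcription factors to act on their target genes. WES1 belongs to the GH3 enzymes, which join auxin to amino acids and thereby lower the amount of free hormone, and many GH3 genes are themselves induced by auxin. LBD16 and LBD29 encode LOB-domain transcription factors that act downstream of ARF7 and ARF19 when the pericycle starts a lateral root, and they are also needed when root tissue forms callus. The pericycle lies inside the endodermis and is not part of the ground tissue.

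The 3 genes were singled out with earlier results of these arrays in view, in which WES1 had passed the test in every line against the control. They were thus chosen by their intensities in these same contrasts, so levels and differences in all 6 pairs of groups are given as a description, with no p-value. Normalized intensities are on the authors' arbitrary linear scale after quantile normalization between arrays. Log2 differences are of log2(intensity + 0.703), which understates changes of dim probe sets, and carry the standard error (SE) of a fit over all 12 arrays. Levels of different probe sets are not compared with one another.

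The deposited values were less spread out on the controls than on most arrays of the lines. The SD of their log2 values lay between 0.68 and 0.70 in the controls, between 0.87 and 0.97 for BLJ arrays and between 0.81 and 1.003 for JKD arrays. In the SCR line it ran from 0.67, on SCR 2, to 0.90. The labels name 2 labelling protocols without a link to single arrays, and the part of the protocol in these spreads was not tested. Neither BLJ nor JKD had a raised probe set in the line named for it: the mean of BLJ (AT1G14580) was 0.804 ± 0.0210 (SD, n = 3) there and 0.923 ± 0.0198 in the controls, and that of JKD (AT5G03150) was 0.838 ± 0.00716 there and 0.859 ± 0.0353 in the controls. The position of both probe sets with respect to the constructs is not known here, the SCR probe set is unnamed here, and the lines are named by their labels alone. Markers of the sorted tissue were present in the table for 4 of 4 cortex genes and 3 of 12 endodermis genes, the latter summing to between 10.02 and 12.8 on the control arrays. The defining endodermal genes CASP1 and MYB36 were not analysed here.

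**Figure D1:**
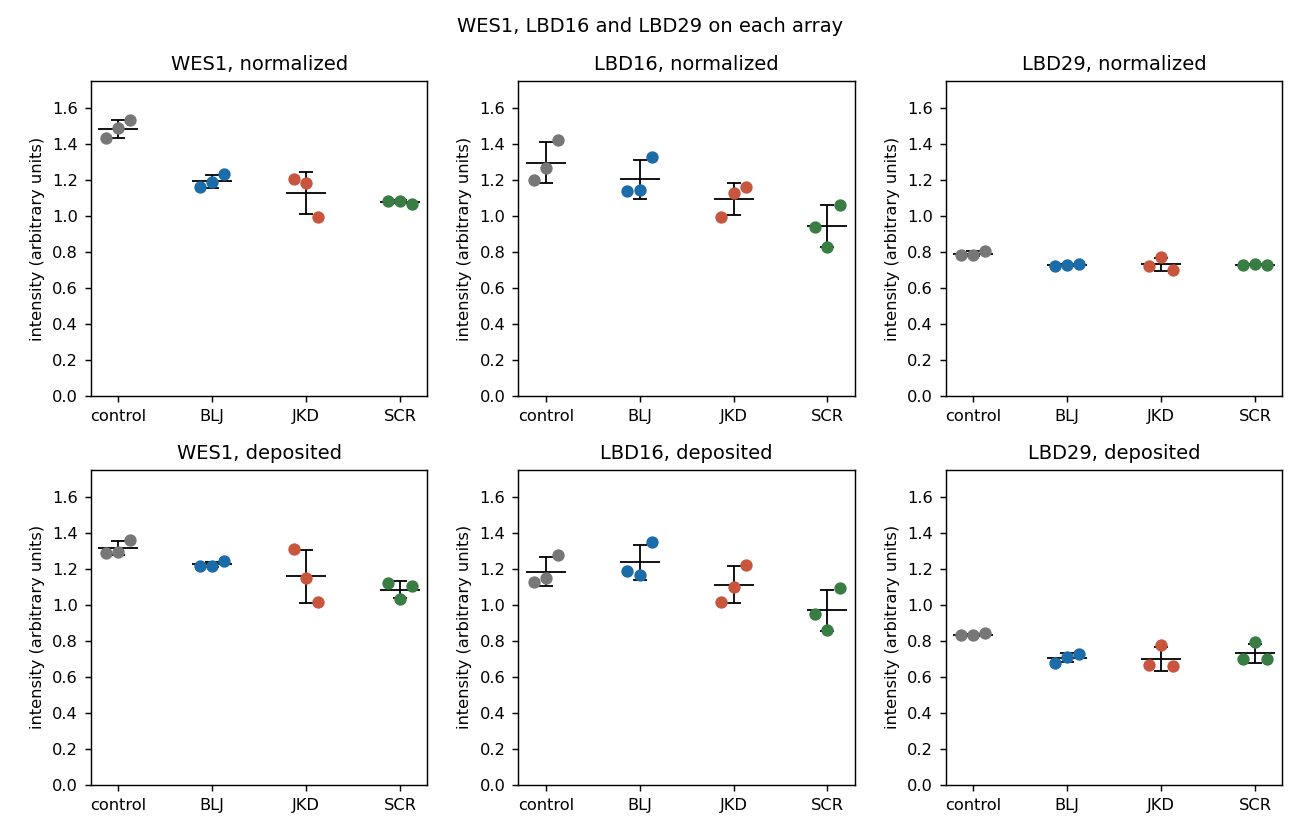
Intensity (arbitrary units, vertical axes from 0) of WES1, LBD16 and LBD29 on each of the 12 arrays, by group; points are arrays, bars are the mean and SD of 3 arrays. The upper row shows quantile-normalized values and the lower row the deposited values; WES1 was below every control array in all 3 lines in the upper row, while JKD 1 lay within the control range in the lower row.

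WES1 was highest in the control cells and lower in all 3 driver lines. Its normalized intensity was 1.43, 1.49 and 1.53 on the control arrays. For the BLJ line it was 1.16, 1.19 and 1.23, in replicate order. Every BLJ array thus lay below every control array. JKD arrays gave WES1 values of 1.21, 1.18 and 0.993, and SCR arrays gave 1.09, 1.08 and 1.07. The JKD arrays were the most scattered, because JKD 3 stood well below JKD 1 and JKD 2, whereas the SCR arrays almost coincided.

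Controls averaged 1.49 ± 0.0493 (SD, n = 3) for WES1, BLJ arrays 1.19 ± 0.0358, JKD arrays 1.13 ± 0.118 and SCR arrays 1.08 ± 0.00865. The lines therefore held 80.4%, 76.0% and 72.7% of the control mean. The log2 differences from the control were −0.21 (BLJ line), −0.26 (JKD line) and −0.30 (SCR line), each with an SE of 0.045. The 3 comparisons share the same control arrays and are not independent of one another. Of 15922 probe sets tested, 430 had a lower log2 difference than WES1 for BLJ, 296 for JKD and 272 for SCR.

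Between the lines, differences in WES1 were small. The BLJ line exceeded the JKD line by 0.053 (SE 0.045) and the JKD line exceeded the SCR line by 0.037, and both pairs overlapped. The BLJ and SCR arrays did not overlap, with a log2 difference of 0.090. In the order control, BLJ, JKD, SCR, only the step from control to BLJ separated neighbouring groups without overlap.

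The size of the WES1 difference depended on how the arrays were scaled. On the deposited values WES1 read 1.29, 1.29 and 1.36 in the controls, and 1.22, 1.21 and 1.24 for BLJ, 1.31, 1.15 and 1.01 for JKD and 1.12, 1.03 and 1.10 for SCR. The BLJ and SCR arrays again lay below all controls, but JKD 1 did not. Log2 differences on that scale were −0.065, −0.12 and −0.17 for the BLJ, JKD and SCR lines, and with each array centred on its median they were −0.0086, −0.058 and −0.14. All of these values were below 0, and the difference in the BLJ line was close to 0 after median centring, where the median over all probe sets tested was 0.067. Of the SCR arrays, SCR 2 was lowest in WES1 on the deposited scale, at 1.03 against a lowest control of 1.29.

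**Figure D2:**
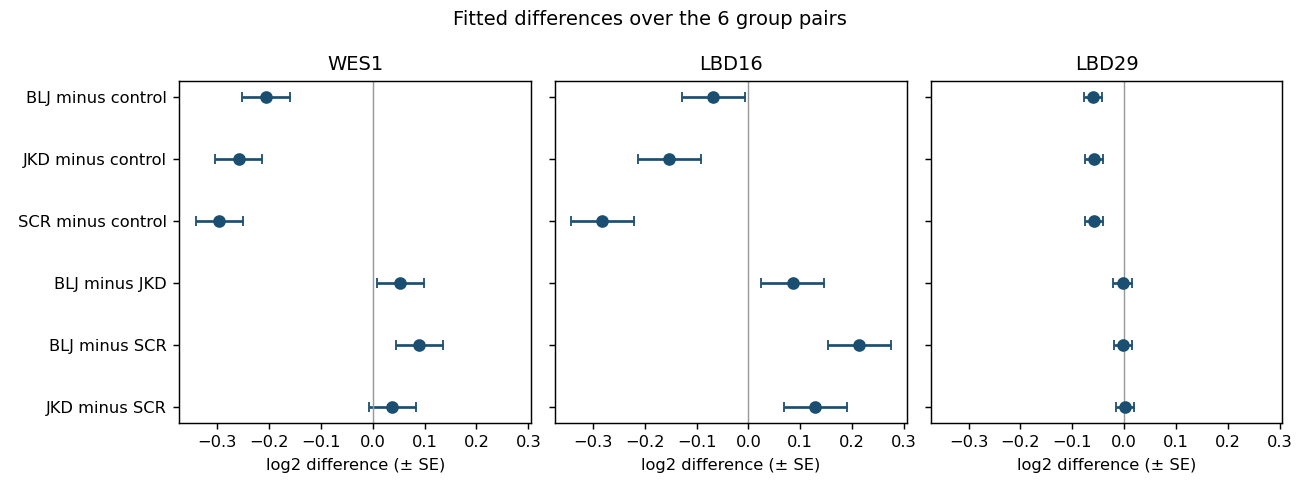
Fitted log2 difference (horizontal axis, first group minus second, ± SE, n = 3 arrays per group) of WES1, LBD16 and LBD29 in each of the 6 group pairs on the quantile-normalized scale. WES1 and LBD29 were below 0 in each line against the control, from −0.21 to −0.30 and from −0.058 to −0.061, while LBD16 ran from −0.068 in the BLJ line to −0.28 in the SCR line.

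LBD16, a regulator of the first asymmetric divisions of lateral root founder cells, showed a graded order with the SCR line lowest. Normalized intensities were 1.20, 1.27 and 1.42 on the control arrays and 1.14, 1.14 and 1.33 on the BLJ arrays. These 2 groups overlapped, and the highest array of each was replicate 3. JKD arrays read 0.994, 1.13 and 1.16 and those of SCR 0.940, 0.827 and 1.06. All arrays of both lines lay below all control arrays, and those of the SCR line also lay below all BLJ arrays.

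The group means of LBD16 were 1.30 ± 0.114 (SD, n = 3) in the controls, and 1.20 ± 0.108, 1.09 ± 0.0887 and 0.943 ± 0.117 in the lines of BLJ, JKD and SCR. Log2 differences from the control were −0.068, −0.15 and −0.28, with an SE of 0.061. Neighbouring groups in the order control, BLJ, JKD, SCR overlapped at every step. LBD16 was higher in the BLJ line than in the SCR line by 0.21 and than in the JKD line by 0.085, and higher in the JKD line than in the SCR line by 0.13. Of the 3 genes, LBD16 had the largest spread between replicates, with a residual SD of 0.085 on the log2 scale against 0.052 for WES1 and 0.019 for LBD29.

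For LBD16 the direction in the BLJ line was not the same under every scaling. On the deposited values the BLJ mean was 1.24 ± 0.0984 (SD, n = 3) against 1.18 ± 0.0810 in the controls, a log2 difference of 0.038, and after median centring the difference was 0.093. In the JKD line it was −0.058 and 0.00095 on these scales. The SCR line stayed lower, at −0.18 and −0.14, and the deposited SCR values of 0.952, 0.863 and 1.09 were all below the lowest control, 1.13. After median centring, the medians over all probe sets tested were 0.067, 0.075 and 0.044 in the BLJ, JKD and SCR lines.

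LBD16 is known from the pericycle, and markers of pericycle and stele were set beside it. Of 12 such genes 4 were in the table (XTH20, AT3G45700, OPS and LHW), and their summed normalized intensity was 3.42 to 3.73 in the controls, 3.302 to 3.56 for BLJ, 3.44 to 3.67 for JKD and 3.68 to 3.96 for SCR. The SCR line, lowest in LBD16, had the range with the highest ends. There LHW, a vascular regulator, averaged 1.36 ± 0.110 (SD, n = 3) against 1.10 ± 0.0658 in the controls. AT3G45700 averaged 0.874 against 0.841 and XTH20 0.770 against 0.768, while OPS was lower, at 0.807 against 0.852. The sum of the cortex markers was 3.51 to 4.10 in the controls, 4.75 to 4.98 for BLJ, 4.12 to 4.32 for JKD and 3.99 to 4.22 for SCR. The single genes did not all move with it. In the BLJ line AT1G09750 averaged 2.15 against 1.37 in the controls and AT3G21670 1.09 against 0.931. The dim AT1G62510 averaged 0.856 against 0.809, and the dim AT1G62500 was lower, at 0.748 against 0.766. In the JKD and SCR lines AT3G21670 was below the control mean, at 0.879 and 0.905, while AT1G09750 and AT1G62510 were above theirs. The epidermal genes EXPA7 and EXPA18, 2 of 6 markers, summed to 1.61 to 2.18 in the controls, 1.753 to 1.84 for BLJ, 1.55 to 1.57 for JKD and 1.42 to 1.53 for SCR. In this sum the JKD and SCR lines lay below all controls and the BLJ line within their range. Of single probe sets tested, 11.3% and 9.54% lay below all controls in the JKD and SCR lines. EXPA7 and EXPA18 were dim there, averaging 0.769 and 0.790 in the JKD line and 0.715 and 0.751 in the SCR line. The 3 endodermis genes (AT4G28100, AT1G61590 and GSO1) summed to 7.81 to 12.3 for BLJ, 10.8 to 13.6 for JKD and 8.50 to 11.4 for SCR, and the 1 root cap gene of 4, AT4G04460, read 0.932 to 1.42 in the controls, 0.905 to 1.07 for BLJ, 1.01 to 1.42 for JKD and 0.825 to 0.934 for SCR. The part of these markers in the levels of the 3 genes was not tested.

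LBD29, which acts with LBD16 in lateral root initiation, was dim, and its differences were small. Its mean over all arrays, 0.534 on the log2 scale, was just above the limit of 0.523 under which probe sets were left out. The control mean, 0.578, was above that limit, and the means of the BLJ, JKD and SCR lines, 0.518, 0.521 and 0.520, were below it. LBD29 thus passed the filter only through the controls, so its place below them is only described. Normalized intensities were 0.782, 0.784 and 0.806 in the controls and 0.725, 0.730 and 0.732 in the BLJ line. They were 0.726, 0.771 and 0.701 in the JKD line and 0.727, 0.736 and 0.730 in the SCR line. All 9 arrays of the lines were below all 3 control arrays.

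Group means of LBD29 were 0.791 ± 0.0132 (SD, n = 3) in the controls, and 0.729 ± 0.00378, 0.732 ± 0.0358 and 0.731 ± 0.00449 in the lines of BLJ, JKD and SCR. The log2 differences from the control were −0.061, −0.058 and −0.059 in the BLJ, JKD and SCR lines, with an SE of 0.017. The 3 lines overlapped with one another, and their differences lay between −0.0031 and 0.0010. On the deposited values LBD29 averaged 0.834 ± 0.00621 in the controls and 0.706 ± 0.0245, 0.6998 ± 0.0666 and 0.730 ± 0.0527 in the BLJ, JKD and SCR lines. Here too, all arrays of the lines lay below all controls, and the highest of them, SCR 2 at 0.791, was below the lowest control, 0.830. The median deposited intensity of whole arrays was also lower on most arrays of the lines, 0.785 to 0.861, than on the controls, 0.855 to 0.866, and its part in the level of LBD29 was not tested.

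**Figure D3:**
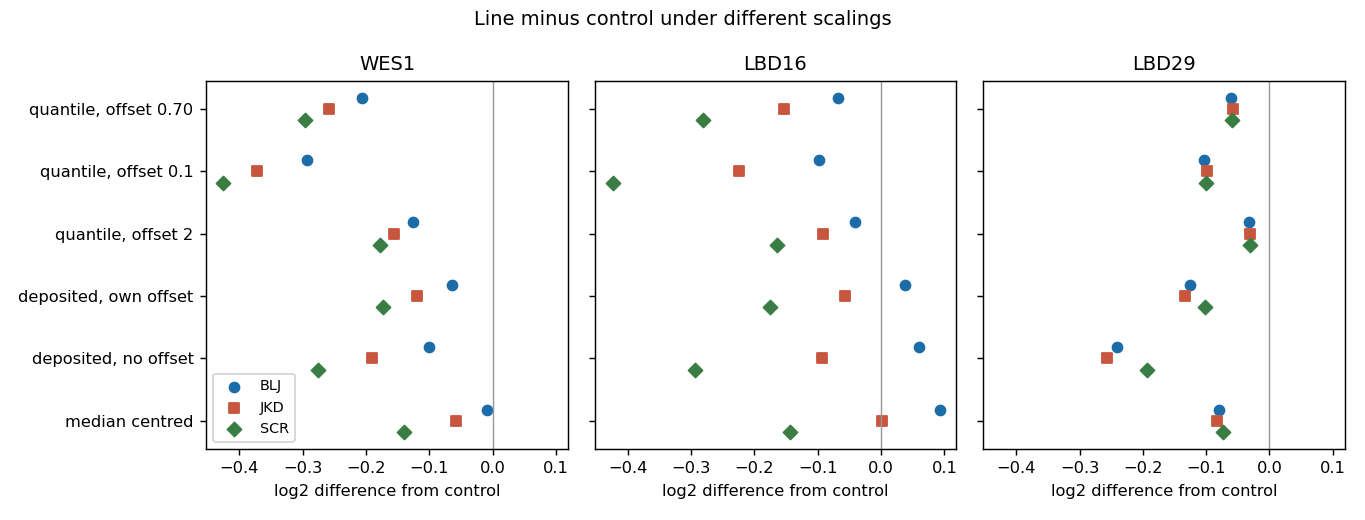
Log2 difference from the control (horizontal axis) of WES1, LBD16 and LBD29 in the BLJ, JKD and SCR lines under 6 scalings (rows), 3 arrays per group. WES1 and LBD29 stayed below 0 in every row, whereas LBD16 in the BLJ line lay above 0 on the deposited scales and after median centring. LBD16 in the JKD line lay just above 0 after median centring.

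Read together, the 3 genes were lower in the lines on the normalized scale, and the counts beside all probe sets are a description, since these contrasts led to the choice. Arrays of the BLJ line lay wholly below the controls for 2 of the 3 genes, and those of the JKD and SCR lines for all 3. Over all probe sets tested, 10.4%, 11.3% and 9.54% lay below the controls in this way in the BLJ, JKD and SCR lines. On the deposited values the counts were 2, 1 and 3 genes, where 22.7%, 22.6% and 9.03% of all probe sets did. LBD29, counted in each of these, passed the filter on dim probe sets only through the controls. The limma test called WES1 lower, and not LBD16 or LBD29, in each line, where it called 2.44%, 1.88% and 0.226% of all probe sets lower, and 4.26%, 2.74% and 0.396% in either direction.

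These calls of WES1 were lost in all 3 lines on the deposited scale, with median centring and when only the 6 arrays of the 2 groups were fitted, and in a fit without control 3, BLJ 1 and BLJ 3, which earlier results of these data had set apart. They were also lost without BLJ 1 or BLJ 3 in the BLJ line, without JKD 1 or JKD 3 in the JKD line, and without BLJ 1, BLJ 3, JKD 1, SCR 1 or SCR 2 in the SCR line. LBD29 was called under other settings: on the deposited scale and after median centring it was called lower in the BLJ and JKD lines, where 8.79% and 12% of all probe sets were called lower on the deposited scale and 3.62% and 4.74% after centring. Without JKD 2 it was called lower in the BLJ and JKD lines, where 321 and 161 probe sets in all were called lower. LBD16 was called lower in the SCR line without SCR 3, where 26 probe sets in all were called lower. In the main fit LBD29 passed the filter only through the controls, which favours a lower value in the lines. The 3 genes were also chosen by these contrasts, so all these calls are only described and are no support for a difference.

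Between lines, 0 of the 3 genes were called. The test called 1.71% of all probe sets between the BLJ and JKD lines, 1.55% between the BLJ and SCR lines and 0.49% between the JKD and SCR lines. Without overlap, WES1 and LBD16 were higher in the BLJ than in the SCR line on both scales, as were 12.5% of all probe sets on the normalized values and 9.52% on the deposited values. On the deposited scale and after median centring LBD16 was called higher in the BLJ than in the SCR line, at 0.21 and 0.24, where 1.48% and 1.78% of all probe sets were called higher. The median difference over the 3 genes was 0.053, 0.090 and 0.037 in these pairs, beside medians of all probe sets of −0.0020, −0.0014 and 0.0011. Against the control the medians over the 3 genes were −0.068, −0.15 and −0.28 in the BLJ, JKD and SCR lines, beside 0.0040, 0.0060 and 0.0028 over all probe sets.

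**Figure D4:**
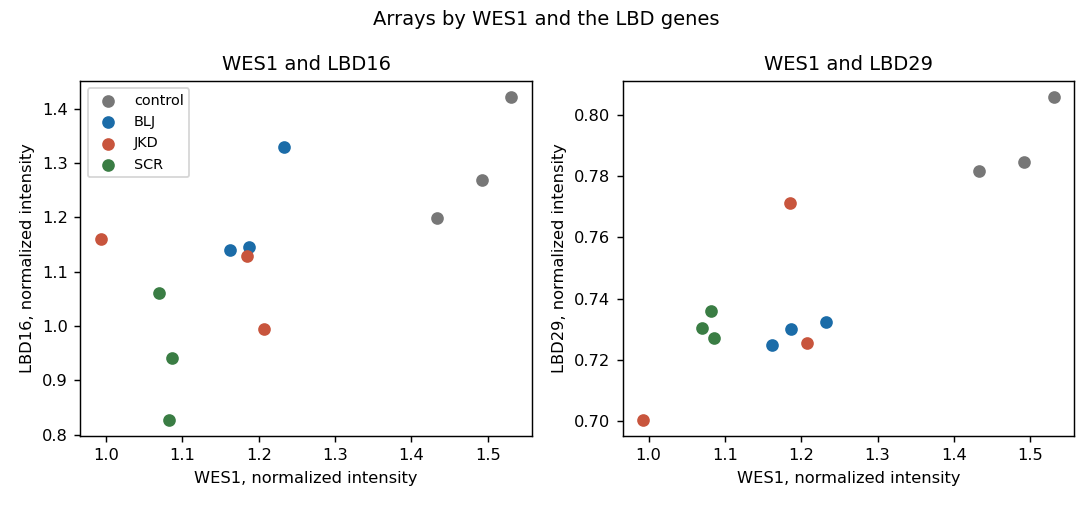
Normalized intensity (arbitrary units) of LBD16 (left) and LBD29 (right) against that of WES1 on the 12 arrays, coloured by group; axes do not start at 0. The 3 control arrays stand apart at the upper right for WES1 and LBD29, and JKD 3, at 0.993 and 0.701, is lowest in both.

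Across the 12 arrays WES1 and LBD29 had a Pearson correlation of 0.890 on the normalized log2 scale and of 0.720 after the group means were removed. WES1 and LBD16 had 0.666 and −0.043, and LBD16 and LBD29 0.518 and 0.140. On the log2 deposited values the 3 correlations were 0.385, 0.438 and 0.0245. For WES1 and LBD29 the SD of the log2 values was largest in the JKD line, at 0.095 and 0.036. Their value of 0.720 therefore rests largely on the JKD arrays. The arrays share the group differences and the normalization, and all these correlations are a description.

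The genes most like each of the 3 were taken as the 5 with the highest Pearson correlation over the 12 arrays, among tested probe sets with a single gene. For WES1 they were AT4G22212 (0.929), AT5G56460 (0.897), LBD29 (0.890), AT4G20300 (0.886) and AT2G39040 (0.883). AT4G22212, the closest, averaged 2.84 in the controls, and 1.72, 1.82 and 1.496 in the lines of BLJ, JKD and SCR. For LBD29 they were AT1G20823 (0.956), psbL (0.943), a photosystem II gene of the plastid, AT4G22212 (0.934), AT1G48750 (0.930) and AT1G21530 (0.912), so AT4G22212 stood in both lists.

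LBD16 had other neighbours: COR47, a cold-induced dehydrin gene (0.956), AT3G54130 (0.945), AT1G05030 (0.937), AT2G38240 (0.937) and AT4G09850 (0.929). COR47 averaged 29.4 in the controls, and 27.5, 24.5 and 20.5 in the lines of BLJ, JKD and SCR, and AT2G38240 5.59, 4.29, 3.26 and 2.66. AT3G54130 averaged 2.13, 2.16, 1.96 and 1.74, with BLJ above the controls. After removal of the group means the correlations of COR47 and AT2G38240 with LBD16 were 0.872 and 0.848.

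The wider auxin pathway was described by 10 lists with 266 genes beyond the 3. Of these, 21 could be tied to a probe set and 11 were bright enough to be tested: 2 of auxin synthesis, 5 of auxin conjugation and turnover and 4 Aux/IAA repressors. The lists of auxin transport, receptors, ARF factors, SAUR genes and the other GH3 and LBD genes had no named probe set, and those genes were not analysed here. In limma's test 0 of the 11 genes were called in any line against the control, where 4.26%, 2.74% and 0.396% of all probe sets were called in the BLJ, JKD and SCR lines, so this count is near the background. An unadjusted p under 0.05 was reached by 3 for BLJ, 1 for JKD and 1 for SCR, where 19.1%, 19.1% and 16.6% of all probe sets reached it. The median log2 difference over the 11 genes was −0.020, −0.013 and −0.0025 in the BLJ, JKD and SCR lines.

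Between the BLJ and JKD lines 2 of the 11 genes changed, UGT74D1 and IAA30, where 1.71% of all probe sets were called. Between BLJ and SCR it was UGT74D1 alone (1.55% of all), and between JKD and SCR 0 were called (0.49% of all), with 2 at an unadjusted p under 0.05. UGT74D1, a glucosyltransferase that acts on auxin and its oxidised form, read 2.24, 2.18 and 2.06 in the controls and 1.99, 1.48 and 1.64 in the BLJ line. It was 2.81, 2.66 and 2.81 in the JKD line and 2.399, 3.08 and 2.26 in the SCR line. All BLJ arrays were below the arrays of every other group, and all JKD and SCR arrays were above the controls. Of all probe sets tested, 10.4% lay below all controls in the BLJ line, and the shares for the other directions are not given here. UGT74D1 was lower in the BLJ line than in the JKD line, with a log2 difference of −0.53 ± 0.096 (SE; limma adjusted p = 0.0144), and lower than in the SCR line, with −0.45 ± 0.096 (limma adjusted p = 0.0379). Against the control its differences of −0.26, 0.27 and 0.19 in the BLJ, JKD and SCR lines did not pass (limma adjusted p = 0.158, 0.139 and 0.344). The difference from the control in the BLJ line was 0.036 on the deposited scale and 0.099 after median centring, so its direction there depended on the scaling. In the JKD line it passed on these scales, at 0.61 and 0.68 (limma adjusted p = 0.00475 and 0.00565).

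IAA30, an Aux/IAA protein without the usual degradation motif, was highest in the BLJ line. BLJ arrays read 1.47, 1.40 and 1.81 and the controls 1.16, 1.28 and 1.33. The JKD arrays read 1.02, 1.14 and 1.11 and the SCR arrays 1.25, 1.11 and 1.18. The BLJ arrays lay above all others. Of all probe sets tested, 12.5% lay wholly higher in the BLJ than in the SCR line, and the shares above the other groups are not given here. IAA30 was higher in the BLJ line than in the JKD line by 0.33 ± 0.063 (log2, SE; limma adjusted p = 0.0173), and its difference of 0.26 from the SCR line did not pass (limma adjusted p = 0.0597), though it passed on the deposited scale and after median centring (0.31 and 0.33, limma adjusted p = 0.0153 and 0.0202) and without control 3 or BLJ 2. Its difference from the control in the BLJ line was 0.20 (limma adjusted p = 0.0913), and on the deposited scale and after median centring it passed at 0.34 and 0.39 (limma adjusted p = 0.00292 and 0.00213).

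These calls depended on single arrays. That of UGT74D1 between the BLJ and JKD lines was lost without BLJ 3, JKD 1 or JKD 3, with an adjusted p of up to 0.0795 in limma over 22 alternatives. The one between the BLJ and SCR lines was kept under 9 of 22 alternatives, with a limma adjusted p of 0.0225 to 0.395. It was lost on the deposited scale, after median centring, with intensities under 1 set to 1, with the 6 arrays of the pair alone, without control 3, BLJ 1 and BLJ 3 together, and without control 2, BLJ 2, BLJ 3, any of the JKD arrays, SCR 1 or SCR 2. That of IAA30 was lost without BLJ 3, JKD 1, JKD 2 or JKD 3 and without control 3, BLJ 1 and BLJ 3 together, with an adjusted p of up to 0.162 in limma.

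The other GH3 genes tested, GH3.1, GH3.3 and GH3.17, did not pass in any of the 6 pairs, although GH3.1 passed in the BLJ line on the deposited scale (−0.088, limma adjusted p = 0.0415). GH3.3, an auxin-conjugating enzyme named here after its values were seen, read 1.35, 1.749 and 1.67 in the controls, 2.01, 1.70 and 2.46 in the BLJ line and 1.39, 1.43 and 1.62 in the JKD line. On the SCR arrays it read 4.86, 2.53 and 1.70, so SCR 1 was the highest of all arrays and SCR 3 lay within the control range. The log2 differences from the control were 0.26, −0.067 and 0.62 (SE 0.22), and the last did not pass (limma adjusted p = 0.194), though it passed without SCR 3 (0.89, adjusted p = 0.0443 in limma) and was 0.29 without SCR 1. Without SCR 3 it also passed between the JKD and SCR lines (−0.95, adjusted p = 0.0409 in limma). GH3.9 was too dim to be tested, and the remaining GH3 genes were not analysed here. GH3.1 had −0.049, −0.025 and 0.011, and GH3.17 −0.046, −0.092 and 0.24. The mean of WES1 was below that of the controls in the SCR line, while the means of the other 3 GH3 genes tested were above it. For GH3.1 that difference, 0.011, was smaller than its SE of 0.022. In the JKD line all 3 were below the controls, as WES1 was, and in the BLJ line GH3.1 and GH3.17 were.

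Auxin synthesis was represented by the flavin monooxygenase genes YUC2 and YUC6. YUC2 had −0.00096, −0.0020 and −0.0033 and YUC6 −0.011, 0.0095 and 0.026 (log2) in the BLJ, JKD and SCR lines, none past the test. Of the other lateral root genes 2 of 23 were in the table, PUCHI, an AP2 factor of the primordium, and CR4, the receptor kinase also named ACR4, and both were too dim to be tested. PUCHI averaged 0.706 ± 0.0320 (SD, n = 3) in the controls and 0.710 ± 0.0302, 0.695 ± 0.0160 and 0.711 ± 0.0217 in the BLJ, JKD and SCR lines. CR4 averaged 0.725 ± 0.0425 in the controls and 0.713 ± 0.00902, 0.733 ± 0.0110 and 0.729 ± 0.00870 in the lines.

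**Figure D5:**
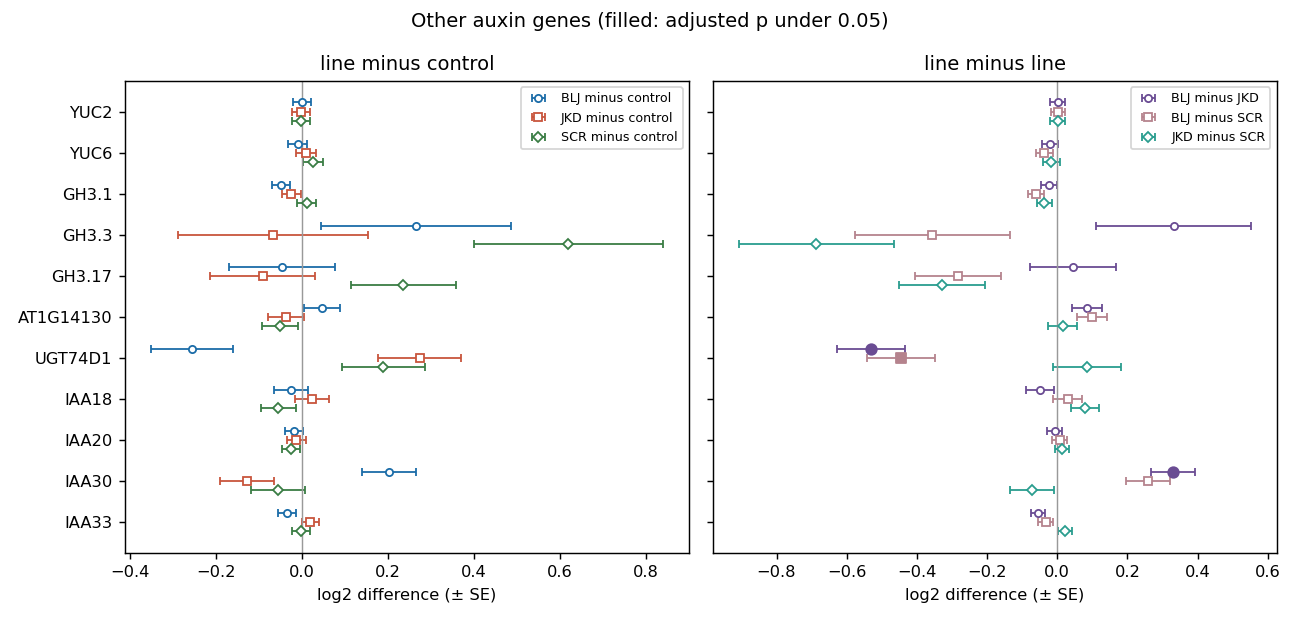
Log2 difference (horizontal axes, ± SE, n = 3 arrays per group) of the 11 other auxin genes that were tested, for each line minus control (left) and each line minus line (right). Filled symbols passed an adjusted p of 0.05; they are UGT74D1 and IAA30 between the BLJ and JKD lines, and UGT74D1 between the BLJ and SCR lines.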

How the data were processed

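RNA of sorted cells was hybridised to 12 ATH1 arrays. In the authors' table each array has a linear intensity for every probe set, made with MAS5 per the submitters' processing notes; version, scaling and centring: not given in the sources used here. Deposited intensity lay between 0.513 and 77.9 (66.1% under 1), and array medians between 0.785 and 0.866. The deposited table gives no detection calls, and precision is limited by how many arrays there are.

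The 55 control probe sets were left out, deposited values were quantile-normalized between arrays and taken to log2(value + 0.703), the 20th percentile, and the dimmest 30% by mean were dropped, leaving 15922. limma 3.58.1 (R 4.3.3; trend, robust) was fitted with 1 mean per group over all arrays, with Benjamini-Hochberg adjustment over all probe sets in each of the 6 pairs and calls at an adjusted p under 0.05. The fit was tested on simulated data. Names came from the platform table, updated through RefSeq (TAIR 10.1, for names only). The named genes were the 3 members, of each auxin list the genes called in any pair (up to 6) or else up to 2 with the smallest p, and the 5 genes most correlated with each member; marker lists were summed over every measured gene. GH3.3, GH3.1 and GH3.17 were named after values were seen. The members and lists were chosen with earlier results of these data known. Alternatives are given in the closing section.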

Additional observations from a re-analysis of the deposited data

How the results depend on the processing

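Under the settings other than leaving out 1 array, 137 log2 differences of WES1, LBD16 and LBD29 moved by less than the SD between replicates and 46 by more, and no called value changed sign. On the deposited scale, WES1 had −0.065, −0.12 and −0.17 in the BLJ, JKD and SCR lines against the control, LBD16 had 0.038, −0.058 and −0.18, and LBD29 had −0.13, −0.13 and −0.10. There LBD29 also had −0.024 between BLJ and SCR and −0.032 between JKD and SCR. With plain log2 of the deposited values, WES1 had −0.10 and −0.19 in the BLJ and JKD lines and 0.18 between BLJ and SCR, LBD16 had 0.060 in the BLJ line and 0.35 between BLJ and SCR, and LBD29 had −0.24, −0.26 and −0.19 in the lines, −0.047 between BLJ and SCR and −0.063 between JKD and SCR. Median centring gave WES1 −0.0086, −0.058 and −0.14, LBD16 0.093, 0.00095 and −0.14, and LBD29 −0.083 in the JKD line. An offset of 0.1 gave WES1 −0.29, −0.37 and −0.43, LBD29 −0.10, −0.098 and −0.10, and LBD16 −0.42 in the SCR line and 0.33 between BLJ and SCR. An offset of 2 gave WES1 −0.13, −0.16 and −0.18, LBD29 −0.032, −0.031 and −0.031, and LBD16 −0.16 in the SCR line and 0.12 between BLJ and SCR; the offset shrinks or widens differences by construction. With intensities under 1 set to 1, LBD16 had −0.18 in the SCR line and 0.12 between BLJ and SCR. LBD29 was below the filter, and has no value, with the dimmest 50% left out, with the floor and, between BLJ and JKD among other pairs of lines, with the 6 arrays of the pair alone. For the other settings the cause was not tested.

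Leaving out each array in turn gave WES1 −0.28 to −0.20 in the JKD line, −0.0017 to 0.081 between BLJ and JKD and 0.0059 to 0.090 between JKD and SCR. LBD16 had −0.11 (without BLJ 3) to −0.024 (without control 3) in the BLJ line, 0.039 (without BLJ 3) to 0.11 between BLJ and JKD, and 0.079 (without SCR 2) to 0.18 between JKD and SCR. Leaving out arrays gave LBD29 −0.078 to −0.041 in the JKD line, −0.019 to 0.016 between BLJ and JKD and −0.019 to 0.017 between JKD and SCR.

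Called probe sets numbered 678, 437 and 63 in the BLJ, JKD and SCR lines and 273, 247 and 78 for BLJ against JKD, BLJ against SCR and JKD against SCR. On the deposited scale there were 2926 (1526 higher, 1400 lower) in the BLJ line, 4007 (2091 and 1916) in the JKD line and 119 between JKD and SCR, and after median centring 2940 (2363 and 577) and 4195 (3441 and 754) in the BLJ and JKD lines. The main splits were 290 and 388 and 138 and 299. In the SCR line the split was 27 and 36, on the deposited scale 31 and 31, and after centring 30 and 20. With the dimmest 50% left out 364, 146 and 31 were called in the lines. The floor gave 155, 22 and 5, and 116 between BLJ and SCR. The 6 arrays of a pair alone gave 34, 13 and 0, and 132 between JKD and SCR. Without control 3, BLJ 1 and BLJ 3, 38, 182 and 6 were called in the lines and 104, 52 and 149 between them. Leaving out each array gave 185 to 792, 7 to 678 and 2 to 276 in the lines, and 78 to 471, 35 to 578 and 20 to 139 between them.

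Of the 11 other auxin genes, 3 (GH3.1, IAA30 and IAA33) and 2 (UGT74D1 and IAA20) were called in the BLJ and JKD lines on the deposited scale, and 1 (IAA30) and 1 (UGT74D1) after centring. Between BLJ and SCR 0 were called with the floor, with 6 arrays alone and without control 3, BLJ 1 and BLJ 3, where 1 was called between BLJ and JKD. Leaving out each array gave 0 to 2 between BLJ and JKD and between BLJ and SCR, and 0 to 1 in the BLJ and SCR lines and between JKD and SCR.

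With the replicate number as a block, 205 probe sets were called in the SCR line, and 529, 639 and 143 for BLJ against JKD, BLJ against SCR and JKD against SCR; 2 auxin genes were called between BLJ and SCR, and LBD16 passed in the SCR line and between BLJ and SCR. After group means were removed, same-numbered arrays of different groups had correlations of −0.19 to 0.62 (median 0.22, 18 pairs) and those of different number −0.62 to 0.37 (median −0.14, 36 pairs). Of the 12 arrays, 8 correlated best with their own number, a hint from the data and not from the design. Since not every same-numbered pair correlated, the numbers were not taken to pair the samples, and the block changed no other call of the 3 genes.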
